A study of Mus musculus with 7 samples.

Results

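The miR-30 family was examined in mouse kidney by member and by genomic locus. Its 5 members on the array, mmu-miR-30a, mmu-miR-30b, mmu-miR-30c, mmu-miR-30d and mmu-miR-30e, were taken by name from the probe annotation, as 5 of 696 miRNAs, by a rule that used no measured value. All 5 were detected on all 7 arrays. The study asked which miRNAs differ between kidneys with a ligated left ureter and sham-operated kidneys, using one-colour arrays hybridised with total RNA. Both groups were kidneys of male C57BL/6 mice, a wild-type inbred strain, 9 to 12 weeks old, collected at day 28 after surgery under pentobarbital anaesthesia. The treated group held 3 arrays (replicates 1, 3 and 4, the S numbers) and the non-treated group 4 arrays (replicates 1 to 4, the C numbers). The deposited text describes ligation and sham surgery but does not say which of the labels stands for which operation. All directions below are therefore labelled treated against labelled non-treated. The direction obtained this way for the miR-30 family is opposite to the one the study gives for ligated against sham kidneys. The reversal is not particular to this family, since under the scaling used below it held for every miRNA the study lists as changed. By label, miR-21 (-2.18 on the log2 scale), miR-205 (-3.35) and miR-199a-3p (-2.55) were lower in the treated arrays. miR-192 (3.24) and miR-29c (1.49) were higher there. Apart from the arrays, the study measured miR-21 by real-time PCR. It reports a rise with time after ligation in mice and higher levels in fibrotic human kidneys. These measurements do not name the array labels, so which operation each label stands for is not settled by the sources used here. Ligation dilates the kidney and scars it, so the array reads a mixture of cells, and fewer cells of a type and less RNA per cell cannot be told apart.

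A microRNA is cut from a hairpin in a longer transcript, and the strand that is loaded into the silencing complex pairs with target messenger RNAs mainly through its seed, bases 2 to 8 counted from its 5′ end. The miR-30 family is abundant in kidney epithelium and podocytes and is known for restraining connective tissue growth factor and other genes of fibrosis and of epithelial-to-mesenchymal change. Its hairpins lie in pairs on separate chromosomes, miR-30c is made from hairpins in more than one pair, and the opposite strand of a hairpin, called the star strand in the array's nomenclature and -3p in current names, is usually the less abundant one.

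The mature sequences are shown because the members differ by few bases although they behaved differently on the arrays. Capitals mark the seed.
mmu-miR-30a-5p: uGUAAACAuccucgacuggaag
mmu-miR-30e-5p: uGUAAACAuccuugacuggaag
mmu-miR-30c-5p: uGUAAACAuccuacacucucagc
These 3 share the seed GUAAACA and the first 12 bases. The first and second differ at 1 of 22 bases, C13U counted from the 5′ end of miR-30a-5p, whereas miR-30a-5p and miR-30c-5p differ at 5 of the 22 bases compared. Of 1679 mature mouse miRNAs in the RefSeq table used, 4 had this seed (0.238%), these 3 and miR-384-5p, which was detected on 0 of the 7 arrays. The table held no sequence for miR-30b and miR-30d, so the count says nothing about their seeds, and they are named only.

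The opposite strands are shown because they tell the hairpins of a shared mature miRNA apart. miR-30a-3p and miR-30e-3p differed only at G18A and shared the seed UUUCAGU, whereas miR-30c-1-3p and miR-30c-2-3p shared UGGGAGA and differed at G9A, U12C and C22U, counted from the 5′ end of the strand named first.
mmu-miR-30a-3p: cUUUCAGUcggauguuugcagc
mmu-miR-30e-3p: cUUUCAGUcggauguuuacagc
mmu-miR-30c-1-3p: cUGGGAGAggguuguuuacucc
mmu-miR-30c-2-3p: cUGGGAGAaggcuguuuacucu

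The 6 hairpin genes form 3 pairs (RefSeq, GRCm38.p6). Mir30a (chr1:23272269-23272339, plus strand) and Mir30c-2 (chr1:23291701-23291784, plus strand) are 19.4 kb apart, and no gene of the annotation table spans the whole pair. Mir30e (chr4:120772606-120772697, minus strand) and Mir30c-1 (chr4:120769534-120769622, minus strand) are 2983 bases apart and lie within the span of Nfyc (chr4:120757435-120831579), which encodes a subunit of the CCAAT-binding factor NF-Y. Mir30b (chr15:68337415-68337510) and Mir30d (chr15:68341208-68341289) are 3697 bases apart, and no gene of the table spans the whole pair. Genes that overlap only part of a pair were not looked for. Whether a hairpin lies in an exon or an intron was not analysed here. The 4 hairpins with a sequence in the table are printed with both mature arms in capitals, because they show that the miR-30c arm is the same in the hairpins on chr1 and chr4.
Mir30a: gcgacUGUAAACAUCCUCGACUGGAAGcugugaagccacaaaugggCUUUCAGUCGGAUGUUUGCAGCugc
Mir30c-2: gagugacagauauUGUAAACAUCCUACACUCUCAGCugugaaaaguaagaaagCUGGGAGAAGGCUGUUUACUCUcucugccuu
Mir30e: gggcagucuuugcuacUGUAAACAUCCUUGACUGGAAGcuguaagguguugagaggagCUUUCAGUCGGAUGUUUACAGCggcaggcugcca
Mir30c-1: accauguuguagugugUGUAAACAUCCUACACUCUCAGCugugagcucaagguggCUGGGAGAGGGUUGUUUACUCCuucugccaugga
A signal of miR-30c on the array is therefore the sum of both hairpins' product, and only its star strands are specific to 1 locus.

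The arrays differed in brightness, and this bears on every level below. Treated arrays had 203 ± 10.5 (SD, n = 3) detected miRNAs and non-treated arrays 260 ± 21.1 (SD, n = 4). For the 186 miRNAs that no array missed, the mean log2 signal was 5.79 to 6.42 in treated and 6.65 to 7.52 in non-treated arrays, where replicate 3 was the dimmest at 6.65 against 7.40 to 7.52 in the other 3. Each array was therefore scaled to that mean, and results are given without non-treated replicate 3 where they rest on it. Markers of several cell types moved with the labels, and those of endothelium were not called. Of 8 miRNAs of kidney tubule epithelium, 7 were tested and 5 rose, their summed scaled signal being 1761 to 2323 in non-treated and 4978 to 5230 in treated arrays (miR-215 was detected on no array). All 5 miRNAs of stroma and smooth muscle fell (summed signal 2530 to 2867 against 574 to 589), as did all 5 of white blood cells (1354 to 1720 against 322 to 336), and both red blood cell miRNAs on the array rose (1079 to 2329 against 4615 to 5118). The endothelial miR-126-3p (-0.0018 on the log2 scale) and miR-126-5p (0.076) were not called (1769 to 1955 against 1780 to 1899). Of 7 liver, muscle and brain miRNAs, 4 were detected on some arrays, miR-1 on 7, miR-133b on 6 and miR-133a and miR-9 on 3 each, with neither of the 2 tested called, and miR-122, miR-206 and miR-124 were detected on no array. The part of cell mixture and of array brightness in the changes of miR-30 was not tested.

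After scaling, all 5 members rose in the treated group, by 2.07 on the log2 scale for miR-30e down to 0.51 for miR-30d. Of 236 miRNAs tested, 60.6% changed in either direction and 25.8% rose at an adjusted p below 0.01 (limma with Benjamini-Hochberg adjustment over all 236), so a call by itself was common on these arrays. The median change of the members was 1.16 against -0.13 over all miRNAs tested. With normexp background correction, an alternative, miR-30b (0.063) and miR-30d (0.030) lay below the median of all miRNAs tested (0.29). By size of the rise, miR-30e ranked 8 and miR-30c ranked 18 among the 236. With 3 against 4 arrays the exact permutation test over all 35 splits cannot go below p = 0.0571, and each of the members gave that value, since no member's groups overlapped. How many of all 236 miRNAs had groups that did not overlap is not given here. Separate groups are therefore not read as particular to the members or their star strands. Precision is limited by how few arrays there are. The study counts its groups in mice, whereas the labels number the arrays without naming an animal.

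The largest change was that of miR-30e of the chr4 pair, whose other hairpin was not measured apart. The scaled log2 signal of miR-30e was 7.71, 7.88, 7.95 and 7.71 in non-treated replicates 1 to 4 and 9.90, 9.90 and 9.86 in treated replicates 1, 3 and 4. The groups were far apart, and the mean rose from 7.81 ± 0.12 (SD, n = 4) to 9.89 ± 0.026 (SD, n = 3), a change of 2.07 (SE 0.089, 4.21-fold, 95% interval 3.65 to 4.86, limma adjusted p = 3.9e-07). Before any scaling its signal was 329, 403, 231 and 329 intensity units in the non-treated and 589, 764 and 478 in the treated arrays. Every treated array was thus brighter for miR-30e although the treated arrays as a whole were dimmer.

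miR-30c, which is made from the chr1 and the chr4 pair, came next. Its scaled log2 signal was 9.43, 9.53, 9.75 and 9.36 in the non-treated and 11.09, 11.15 and 11.15 in the treated arrays. The treated arrays were nearly identical and all higher, with a change of 1.61 (SE 0.11, 3.06-fold, 95% interval 2.58 to 3.62, limma adjusted p = 2.5e-06). Unscaled, the values of 1079, 1266, 805 and 1038 in non-treated arrays overlapped with 1339, 1815 and 1173 in treated ones.

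miR-30a of the chr1 pair had scaled log2 signals of 10.55, 10.58, 10.60 and 10.40 in the non-treated and 11.69, 11.74 and 11.65 in the treated arrays. The groups did not overlap, and the change was 1.16 (SE 0.082, 2.23-fold, 95% interval 1.96 to 2.55, limma adjusted p = 4.0e-06). Its unscaled signals, 2357, 2622, 1448 and 2125 against 2028, 2730 and 1654, covered the same range in both groups.

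The chr15 pair changed least. miR-30b had scaled log2 signals of 8.30, 8.42, 8.13 and 8.26 in the non-treated and 8.73, 8.92 and 8.84 in the treated arrays, a change of 0.56 (SE 0.095, 1.47-fold, 95% interval 1.26 to 1.71, limma adjusted p = 0.00079). Its partner miR-30d gave 8.46, 8.57, 8.83 and 8.39 against 9.07, 9.05 and 9.11, a change of 0.51 (SE 0.11, 1.43-fold, 95% interval 1.19 to 1.71, limma adjusted p = 0.0034). Both sat higher in every treated array after scaling, with the smallest gap in miR-30d between 8.83 in non-treated replicate 3 and 9.05. The call for miR-30d was lost, at adjusted p = 0.011 to 0.013, when non-treated replicate 1 or any one of the 3 treated replicates was left out. Unscaled, miR-30d was lower in every treated array (329, 424 and 285 against 554, 649, 425 and 528), and miR-30b overlapped (262, 388 and 236 against 495, 585, 262 and 482).

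**Figure D1:**
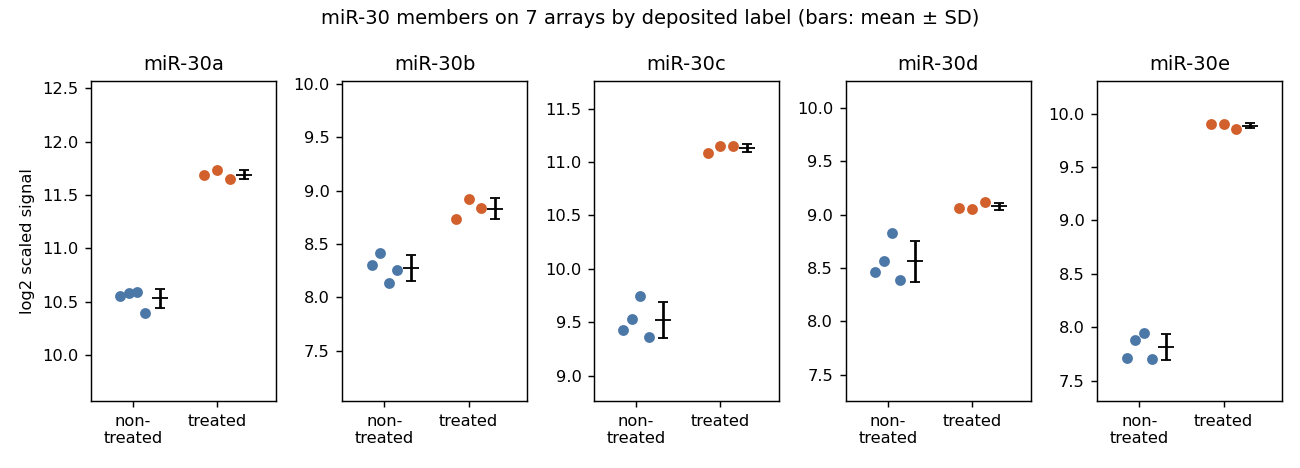
Scaled log2 signal of each miR-30 member on the 4 non-treated (blue) and 3 treated (orange) arrays, with mean ± SD. Each panel spans the same 3 log2 units around its own centre. The treated points lie above the non-treated points in every panel, by most in miR-30e (2.07) and by least in miR-30d (0.51).

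Leaving out the dim non-treated replicate 3 gave changes of 1.16 for miR-30a, 0.48 for miR-30b, 1.67 for miR-30c, 0.58 for miR-30d and 2.09 for miR-30e, and each call held (limma adjusted p between 1.4e-06 and 0.0016). The family's share of the summed signal of all detected miRNAs is itself a scaling, to each array's total. It was 2.56% to 3.09% on the non-treated and 6.70% to 7.14% on the treated arrays, non-treated replicate 3 standing at 2.98%. The family's unscaled signal overlapped, at 3172 to 5524 in non-treated and 3826 to 6122 in treated arrays. The total that it was divided by was lower in treated arrays (53602 to 91356 against 106330 to 178816). This share weights the members by how brightly their probes bind and is not a share of molecules.

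Whether members differed from each other was tested within arrays, by subtracting 1 member's log2 signal from all others and refitting, so that the scaling between arrays drops out. With each array rescaled to miR-30a, miR-30b, miR-30c, miR-30d or miR-30e, 86.0%, 77.4%, 90.2%, 70.6% and 94.0% of the other 235 miRNAs were called at an adjusted p below 0.01, so that a difference from any 1 miRNA was the usual outcome. Of the 10 pairs of members, 9 were called, with exact permutation p = 0.0571, the smallest possible, in each of those 9. The exception was the chr15 pair.

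miR-30d minus miR-30b was 0.16, 0.15, 0.70 and 0.13 in the non-treated and 0.33, 0.13 and 0.27 in the treated arrays. Non-treated replicate 3 stood apart, and the groups overlapped. The changes of the pair differed by -0.04 (95% interval -0.40 to 0.32, limma adjusted p = 0.82, exact permutation p = 0.97), and without non-treated replicate 3 by 0.10 (adjusted p = 0.38). A difference of up to about the size of the interval's ends was not detectable with these arrays.

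The chr1 and chr4 pairs did part. miR-30e minus miR-30a, the members 1 base apart, was -2.84, -2.70, -2.65 and -2.69 in the non-treated and -1.78, -1.84 and -1.79 in the treated arrays. The treated values were all higher and close together, and the difference of the changes was 0.91 (SE 0.098, 1.89-fold, limma adjusted p = 8.8e-06). Whether probes for these near-identical sequences read each other's target was not tested. miR-30c lay between them, 0.45 above miR-30a (95% interval 0.22 to 0.69, limma adjusted p = 0.0022) and 0.46 below miR-30e (95% interval 0.23 to 0.69, limma adjusted p = 0.0017). Of the 9 calls these were the ones lost when 1 array was left out, miR-30c against miR-30a without treated replicate 4 (0.42, adjusted p = 0.012) and miR-30e against miR-30c without treated replicate 1 (0.43, adjusted p = 0.011).

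Against the chr15 pair the differences were wider. miR-30e minus miR-30d was -0.75, -0.69, -0.88 and -0.68 in the non-treated and 0.84, 0.85 and 0.74 in the treated arrays, a shift of 1.56 (95% interval 1.31 to 1.81, limma adjusted p = 2.7e-06) that was the largest of the 10. The difference was 1.52 for miR-30e minus miR-30b, 1.06 for miR-30c minus miR-30b, -1.10 for miR-30d minus miR-30c, and -0.60 and -0.64 for miR-30b and miR-30d minus miR-30a. The tightest contrast was miR-30d minus miR-30c, which was -0.92 to -0.98 in the 4 non-treated and -2.02 to -2.10 in the 3 treated arrays, so that the non-treated replicate 3 did not stand apart there.

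**Figure D2:**
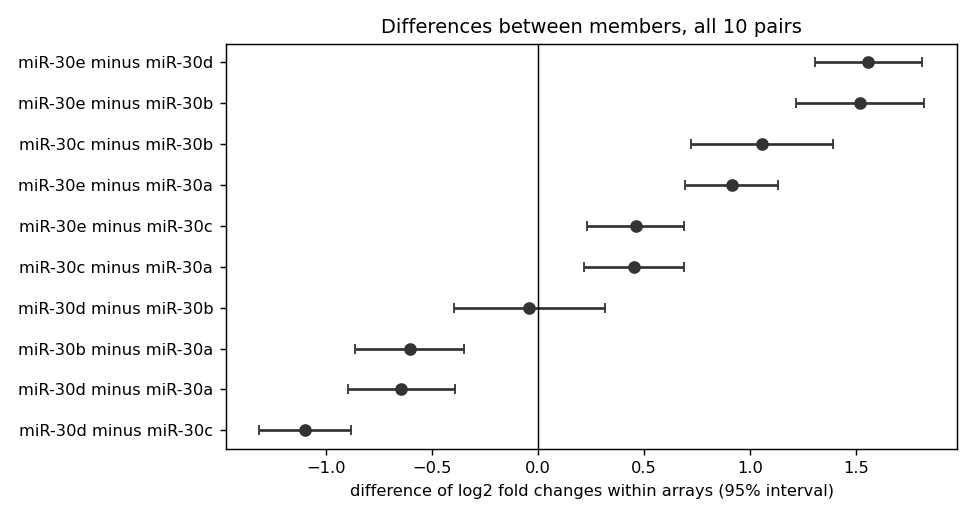
Differences between the log2 fold changes of members within arrays for all 10 pairs, as points with 95% intervals. Only the interval of miR-30d minus miR-30b, from -0.40 to 0.32, crosses 0.

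The star strands, which were not used to choose the members, gave a second reading of each locus. Of 5 star strands on the array, 4 were tested and all 4 were called higher, as were 25.8% of all 236 miRNAs tested. miR-30e* rose by 1.81 (SE 0.12, limma adjusted p = 2.5e-06), from 5.12, 5.12, 5.37 and 4.91 to 7.02, 6.98 and 6.81 on the scaled log2 axis. miR-30a* rose by 1.21 (SE 0.14, limma adjusted p = 7.7e-05), from 5.91, 5.98, 6.46 and 5.96 to 7.33, 7.30 and 7.22. miR-30c-2*, the strand specific to the chr1 copy of miR-30c, rose by 0.97 (SE 0.13, limma adjusted p = 0.00014), from 3.79, 3.70, 3.85 and 3.69 to 4.61, 5.03 and 4.55. In each of these the groups were separate.

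miR-30b* rose by 0.57 (SE 0.15, limma adjusted p = 0.0084), from 3.29, 3.25, 3.55 and 2.96 to 3.92, 3.95 and 3.63. Its groups nearly touched, at 3.55 in non-treated and 3.63 in treated. Only 30 of its 140 spots were well above background, and its call was lost, at adjusted p = 0.017 to 0.037, without any one of non-treated replicates 1, 2 and 4 and treated replicates 1 and 3. miR-30c-1*, the strand specific to the chr4 copy of miR-30c, was detected on 1 of 4 non-treated arrays (replicate 2) and on 2 of 3 treated arrays (replicates 1 and 3), and was not tested. Its scaled log2 signal was 3.15 and 2.96 on those treated arrays and 1.36 on that non-treated array, and at the floor of 0.99 on the others. Undetected miRNAs can lie well above that floor. For example, miR-10a* was detected on 0 treated arrays with a treated mean of 3.20. A star strand test of a miR-30c copy thus exists for the chr1 copy only.

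Within arrays, star strands were compared with the mature strand of the same hairpin, and 1 of the 4 differences was called. miR-30a* minus miR-30a changed by 0.05 (95% interval -0.26 to 0.35, limma adjusted p = 0.74) and miR-30b* minus miR-30b by 0.01 (95% interval -0.39 to 0.42, limma adjusted p = 0.95). miR-30e* minus miR-30e changed by -0.27 (95% interval -0.51 to -0.02, limma adjusted p = 0.036, not called), and was called with normexp background correction (-0.51, adjusted p = 0.0010). miR-30c-2* rose less than the shared miR-30c, the difference being -5.63, -5.83, -5.90 and -5.68 in the non-treated and -6.48, -6.12 and -6.61 in the treated arrays. These groups did not overlap, and the shift was -0.64 (95% interval -0.97 to -0.31, limma adjusted p = 0.0020). The call was lost without treated replicate 1 (-0.60, adjusted p = 0.010) or 4 (-0.54, adjusted p = 0.012), and the shift was -0.06 in the deposited value table, which holds 1 spot per probe.

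Comparisons of a star strand with the other member of its pair were added after the values had been seen. miR-30c-2* minus miR-30a, both from chr1, changed by -0.19 (95% interval -0.46 to 0.09, limma adjusted p = 0.17), and miR-30c-2* minus miR-30e, from chr4, by -1.10 (95% interval -1.41 to -0.79, limma adjusted p = 2.5e-05). In the deposited value table the former turned to 0.41 (adjusted p = 0.23) and the latter was -0.45 (adjusted p = 0.24), or -0.73 (adjusted p = 0.025) there without its error column. miR-30a* of chr1 minus miR-30c changed by -0.41 (95% interval -0.66 to -0.15, limma adjusted p = 0.0070), a call lost at adjusted p = 0.012 to 0.037 without non-treated replicate 1 or 4 or any one treated array, with normexp (-0.40, adjusted p = 0.014) and in the deposited table (-0.37, adjusted p = 0.20), whereas miR-30e* minus miR-30c, from chr4, changed by 0.20 (95% interval -0.06 to 0.45, limma adjusted p = 0.12). On chr15, miR-30b* minus miR-30d changed by 0.05 (95% interval -0.25 to 0.36, limma adjusted p = 0.71), but with normexp by 0.47 (adjusted p = 0.0013), a call, and in the deposited table by 1.04 (adjusted p = 0.20). Set side by side, the changes were 0.51 to 0.57 for the chr15 strands, 0.97 to 1.21 for the chr1 strands and 1.81 to 2.07 for miR-30e and its star strand on chr4, with miR-30c at 1.61. Under quantile normalization the chr15 and chr1 ranges widened to 0.29 to 0.75 and 0.98 to 1.43. The chr4 range narrowed to 1.99 to 2.05, and miR-30c stood at 1.40. With normexp miR-30b* (0.50) stood beside miR-30c-2* (0.49) and apart from miR-30b (0.063) and miR-30d (0.030). That correction added an offset of 50 units to each spot. Unscaled signals without it were only 6.4 to 16 units for miR-30b* and 12 to 26 for miR-30c-2*. The part of the offset in the normexp values of these dim strands was not tested. With normexp miR-30e* (0.76) was also below miR-30c (0.96), whereas miR-30e stood at 1.27.

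**Figure D3:**
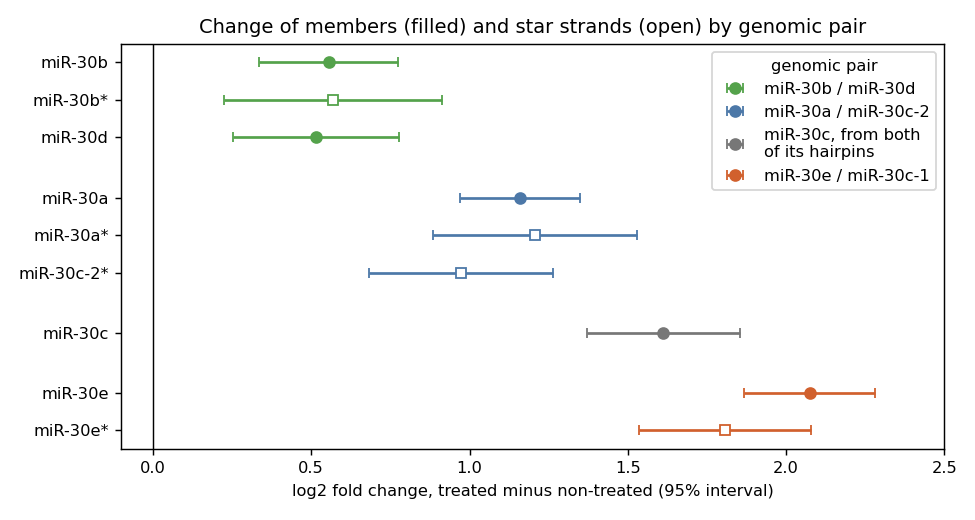
Log2 fold change (treated minus non-treated) with its 95% interval for the members (filled circles) and the 4 tested star strands (open squares), grouped by genomic pair. Under the processing used here, members and star strands of a pair lie side by side. They lie at 0.51 to 0.57 for miR-30b and miR-30d, 0.97 to 1.21 for miR-30a and miR-30c-2* and 1.81 to 2.07 for miR-30e, with miR-30c at 1.61. With normexp the ranges of the chr15 and chr1 strands overlap.

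Each member was read by 2 probes of the array, and miR-30a by 3, which differ in their design and give repeat measurements of 1 target rather than replicates. All 700 member spots over the 7 arrays (100 per array) were well above background and none was saturated. Spots of 1 probe on 1 array had a coefficient of variation between 1.67% and 25.0% (median 12.7%). In the fit over 366 probes, 60.4% of which were called, all 11 member probes rose. The changes were 1.13 to 1.21 for the 3 probes of miR-30a, 0.54 and 0.65 for miR-30b, 1.60 and 1.67 for miR-30c, 0.44 and 0.62 for miR-30d and 2.06 and 2.08 for miR-30e. The steps between loci were thus wider than the gaps between probes of a member.

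No probe differed from the brightest probe of the same member by more than 0.18 (miR-30d, 95% interval -0.18 to 0.53, limma adjusted p = 0.33), and none of the 6 such differences was called, the adjusted p ranging from 0.33 to 0.86. With arrays rescaled to the brightest probe of miR-30a, miR-30b, miR-30c, miR-30d and miR-30e, 87.9%, 78.6%, 90.7%, 69.9% and 93.2% of the other 365 probes were called.

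**Figure D4:**
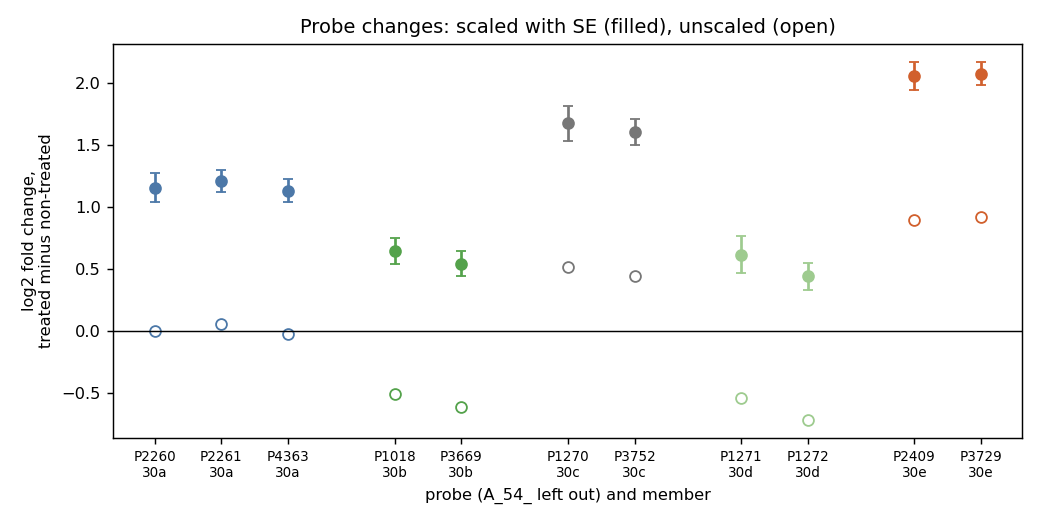
Log2 fold change of the 11 member probes, scaled with its SE (filled) and unscaled (open). Probes of 1 member lie together on both scales, and only the pair for miR-30e is called without scaling, at 0.90 and 0.92.

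The sign of the smaller changes depended on how arrays were set against each other, because the treated arrays were dimmer. Over 8 scalings the median change of all miRNAs tested ran from -1.28 without scaling to 0.12 at the 75th percentile of all miRNAs. The change of miR-30e ran from 0.92 to 2.32, was above 0 in all 8 and was called in all 8. That of miR-30c ran from 0.46 to 1.86, and that of miR-30a from 0.0029, indistinguishable from 0, to 1.41. Without scaling the fit gave each member and tested star strand the same SE (0.34). The call for miR-30e without scaling therefore rests on a spread pooled over miRNAs, not on the spread of miR-30e itself. miR-30b (-0.60 to 0.80) and miR-30d (-0.64 to 0.76) were above 0 in 5 of 8 and below 0 without scaling, with spike-in controls and with the mean of all miRNAs. With spike-in controls miR-30d was called lower (-0.44, limma adjusted p = 0.0089), whereas miR-30e (1.12) and miR-30c (0.66) were called higher.

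Scalings that add 1 constant to an array move all members alike, so order and spacing are fixed under them and their number adds nothing. Quantile normalization, which can move members against each other, gave 1.99 for miR-30e, 1.40 for miR-30c, 0.98 for miR-30a, 0.38 for miR-30b and 0.29 for miR-30d. Relative to the median of all miRNAs tested, the change under quantile normalization against that under the scaling used here was 2.01 against 2.20 for miR-30e, 1.42 against 1.74 for miR-30c and 1.01 against 1.29 for miR-30a. It was 0.40 against 0.68 for miR-30b and 0.31 against 0.64 for miR-30d, so the chr15 pair lost the largest part of its relative change.

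**Figure D5:**
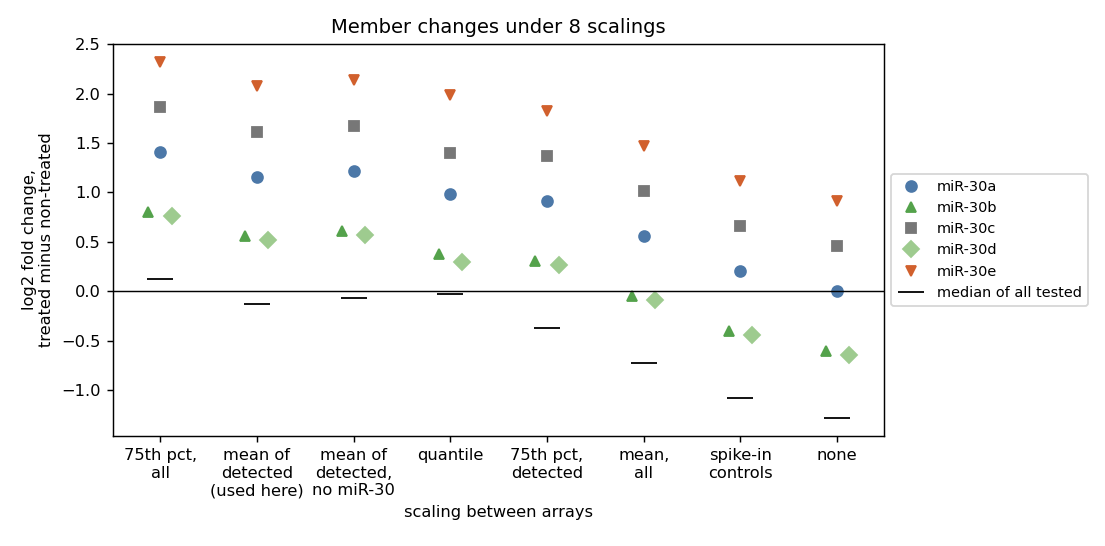
Log2 fold change of each member under 8 scalings between arrays, with the median of all miRNAs tested as a bar. Apart from quantile normalization the scalings shift all members together by construction, so the plot shows where 0 falls among them, and miR-30e stays above 0 throughout, at 0.92 or more.

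The profiles over the 7 arrays, each centred on its own mean, were compared by their root-mean-square distance in log2 units among miRNAs detected on all arrays. Where miRNAs differ in change, this distance mostly follows that difference and is not a separate reading of it. miR-30e and miR-30b, for example, differed by 1.52 in change and lay 0.76 apart. Among other members the nearest to miR-30b was miR-30d (distance 0.19), the nearest to miR-30e was miR-30c (0.23) and the nearest to miR-30a was miR-30c (0.24). Counting star strands, miR-30c lay closest of all 185 other miRNAs to miR-30e* (0.13), and miR-30e* ranked 2 of 185 for miR-30e (0.16). miR-30b* ranked 4 of 185 for miR-30d (0.13), and miR-30a* and miR-30c-2* ranked 6 and 7 for miR-30a (both 0.16). Other pairs of a locus were farther apart. miR-30d ranked 11 for miR-30b, and miR-30b ranked 14 for miR-30d. Strands of the same hairpin ranked 26 for miR-30b* against miR-30b (0.23) and 27 for miR-30c-2* against miR-30c (0.35). Profiles within a locus were therefore not uniformly the nearest, and miRNAs of other families were often as close.

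Outside the family, over 177 candidates, the closest profiles to miR-30a were miR-712 (0.083), miR-429 of the miR-200 family (0.13) and miR-212-3p (0.13). Those closest to miR-30b were miR-101a (0.11), the array entry miR-2138_v15.0 (0.12) and let-7g (0.12). miR-30c was followed by miR-29c* (0.15), miR-185 (0.17) and miR-29c (0.17). miR-30d was followed by miR-222 (0.11), miR-455 (0.11) and miR-101a (0.13). miR-30e lay nearest to miR-582-5p (0.083), miR-378 (0.17) and miR-193 (0.19). The median distance of all candidates was between 0.42 for miR-30d and 1.06 for miR-30e.

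Members of other families diverged too. In the miR-29 family, known for repressing collagen genes, miR-29c (1.49) and miR-29b (1.18) rose and miR-29a (0.28, limma adjusted p = 0.13) was not called. In the miR-200 family, which restrains ZEB factors in epithelium, 3 of 5 rose with a median of 0.83, and miR-200c (-0.12) and miR-141 (0.33) were not called. The let-7 family with miR-98 had 1 member called higher and 2 called lower of 9, with a median of 0.01. Against these, the miR-30 family had all 5 members called in 1 direction under the scaling used here, with a range of 0.51 to 2.07. Of all miRNAs tested, 25.8% were called higher. The calls of miR-30b and miR-30d were lost under several other scalings, and miR-30d was called lower with spike-in controls (-0.44). These family counts were not tested against each other.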

How the data were processed

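Per the labels, total kidney RNA was hybridised to 1-colour Agilent arrays, and the authors deposited the scanner's result for each array (Agilent Feature Extraction 10.7.3.1), a linear intensity per spot with background already subtracted. The deposited value table held the first spot's intensity for 6 arrays and the error estimate for treated replicate 4, and served as an alternative. Here, outlier spots were left out, processed intensities were averaged per probe and summed per miRNA. Arrays were scaled by the mean log2 value of the 186 miRNAs that no array missed, floored at 1.99 (the lowest scaled signal of a detected miRNA) and tested with limma 3.58.1 in R 4.3.3 on the 236 miRNAs that 1 group or both detected throughout. Calls had a Benjamini-Hochberg adjusted p below 0.01. The methods name a t-test, run as an alternative with scalings, signals, floors, filters, adjustments, a replicate block and left-out arrays. Named miRNAs were the members, their star strands, for each member the 3 nearest profiles, and the families miR-29, miR-200 and let-7. Markers of cell types and organs were named too, and miR-21 and miR-205 for their direction only. Members and lists were chosen with earlier results of these data known. The fits were tested on simulated data. Levels of different probes were not compared. Sequences and coordinates are from RefSeq (GRCm38.p6), which listed 6 hairpin genes and held sequences for 4.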

Additional observations from a re-analysis of the deposited data

Results flagged for a closer look

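Of 22 sets of non-treated values examined (members, star strands, the 10 pairs and array measures), 5 held 1 array far from the other 3, all in replicate 3. Chance flags about 5% of such sets, and the sets share arrays and members. For the miRNAs that no array missed, the mean log2 signal was 6.65 there against 7.40 to 7.52. miR-30a* read 6.46 on the scaled log2 axis against 5.91 to 5.98. The other 3 are differences from miR-30b, which were 1.62 for miR-30c minus miR-30b against 1.11 to 1.13, 0.70 for miR-30d minus miR-30b against 0.13 to 0.16, and -0.18 for miR-30e minus miR-30b against -0.59 to -0.54. They share 1 value, the low miR-30b signal of that array (8.13 scaled, 262 unscaled). What set this array apart was not tested.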

How the results depend on the processing

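Of 26 alternatives for levels and 15 for differences, the call for miR-30e held in all 26 (0.92 to 2.32), and miR-30e against miR-30a, miR-30b and miR-30d and miR-30c against miR-30b and miR-30d held in all 15. The call for miR-30e without scaling used an SE common to all members and tested star strands (0.34). Changes of miR-30b and miR-30d turned to -0.045 and -0.086 with the mean of all miRNAs, -0.60 and -0.64 without scaling and -0.40 and -0.44 with spike-in controls. miR-30a was not called there (0.56, 0.0029 and 0.20), nor was miR-30c without scaling (0.46). miR-30b and miR-30d lost their calls at the 75th percentile of detected miRNAs (0.31 and 0.27), with quantile normalization (0.38 and 0.29), normexp (0.063 and 0.030), the deposited table (0.18 and 0.33), that table without its error column, an alternative added after the data were seen (0.43 and 0.56), and Bonferroni adjustment (0.56 and 0.51). miR-30d alone lost it under the methods' t-test (0.51). With normexp the median over all miRNAs tested was 0.29, above miR-30b and miR-30d.

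Among differences, normexp ended the calls for miR-30b (-0.48), miR-30c (0.41) and miR-30d (-0.52) minus miR-30a and miR-30e minus miR-30c (0.31) and miR-30a* minus miR-30c (-0.40), and made calls of miR-30e* minus miR-30e (-0.51) and miR-30b* minus miR-30d (0.47). In the normexp fits rescaled to miR-30c and to miR-30d, the rows given shared an SE (0.16 and 0.13). Calls in those fits therefore rest on a spread pooled over miRNAs. The deposited table ended the calls for miR-30b minus miR-30a (-0.84), miR-30c minus miR-30a (0.48) and miR-30e minus miR-30c (0.39). It gave -0.82, 0.43 and 0.58 without its error column. Both tables also ended miR-30a* minus miR-30c (-0.37 and -0.40), miR-30c-2* minus miR-30c (-0.064 and -0.15) and miR-30c-2* minus miR-30e (-0.45 and -0.73). The uncalled miR-30d minus miR-30b turned to 0.15 and 0.13 with the same tables. Without scaling the star strands miR-30b* (-0.59) and miR-30c-2* (-0.18) reversed and miR-30a* (0.050) and miR-30e* (0.65) were not called. miR-30b* reversed with the mean of all miRNAs (-0.032) and spike-in controls (-0.39), where miR-30c-2* (0.37 and 0.016) and, with spike-ins, miR-30a* (0.25) were not called. miR-30b* also lost its call at the 75th percentile of detected miRNAs (0.32), with Agilent's gene signal (0.36), the deposited table (1.37), the median of probes (0.46) and, at 0.57, with all miRNAs tested, the methods' t-test and Bonferroni adjustment, which ended the call of miR-30c-2* (0.97) too. Uncalled star differences changed sign. miR-30a* minus miR-30a was -0.0062 with the median of probes, miR-30b* minus miR-30b -0.24 with Agilent's gene signal and -0.12 with the median of probes, miR-30b* minus miR-30d -0.20 and -0.059 under the same, miR-30e* minus miR-30c -0.20 with normexp, and miR-30c-2* minus miR-30a 0.41 and 0.29 with the tables. Without scaling, 1 probe of miR-30a (A_54_P4363, -0.023) and both of miR-30b (A_54_P1018, -0.51, and A_54_P3669, -0.61) and of miR-30d (A_54_P1271, -0.54, and A_54_P1272, -0.72) fell below 0. The cause was not tested.

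Leaving out 1 array at a time gave 0.46 to 0.58 for miR-30d, 0.42 to 0.51 for miR-30c minus miR-30a, 0.43 to 0.49 for miR-30e minus miR-30c, 0.47 to 0.70 for miR-30b*, -0.092 to 0.10 for miR-30d minus miR-30b, -0.016 to 0.15 for miR-30a* minus miR-30a, -0.082 to 0.16 for miR-30b* minus miR-30b and -0.018 to 0.17 for miR-30b* minus miR-30d. Of all miRNAs, 61 were called higher and 82 lower, in all 127 to 163 with 1 array left out, 59 with the deposited table, 89 without its error column and 84 with Bonferroni adjustment. The split of higher to lower calls was 50 to 103 at the 75th percentile of detected miRNAs, 30 to 131 with the mean of all, 76 to 61 at the 75th percentile of all, 8 to 166 without scaling, 17 to 172 with spike-in controls and 105 to 52 with normexp.

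Same-numbered deviations correlated at -0.07 to 0.13 and other-numbered ones at -0.11 to 0.14, so the replicate numbers showed no pairing of the arrays. With 3 same-numbered correlations, these values cannot tell whether the arrays were paired by design. The replicate block over the 6 arrays of shared numbers gave 127 calls (57 higher and 76 lower on those arrays without it, also added later) and ended the calls for miR-30d (0.52), miR-30c minus miR-30a (0.44), miR-30e minus miR-30c (0.48) and miR-30a* minus miR-30c (-0.44), and no other call for members or star strands. With and without the block on these 6 arrays, miR-30a* minus miR-30a was -0.0022 and miR-30b* minus miR-30b -0.038.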
